A study of Mus musculus with 24 samples.

Results

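The 6 ETS genes Erg, Ets1, Fli1, Elf1, Elf2 and Etv6 were followed across 24 mouse arrays, of a pre-B leukaemia cell line and of primary leukaemias. The genes were picked by symbol, as 6 of the 17097 genes that the arrays measured with at least 1 named probe set. They are read by 14 probe sets. Each gene is given by the probe set with the largest spread over the arrays, and the other 8 are described after it.

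All values come from total RNA, made into biotin-labelled cRNA and hybridised to Affymetrix arrays, 1 sample an array. The cell line BKO408 was derived from a pre-B acute lymphoblastic leukaemia (preB-ALL) of a Blnk knockout mouse and kept in RPMI medium with serum and IL-7, so control and LAP cells alike lack Blnk by their labels. Of the cell-line arrays 4 hold control BKO408 cells, and 4 hold BKO408 cells given a retrovirus for LAP, an activating isoform of the transcription factor C/EBPb. Of the tumours 5 are preB-ALL of Blnk homozygous knockout mice ("Blnk tumours"), 3 are preB-ALL of Blnk knockout mice that also carry a Cebpb LAP transgene ("LAP/Blnk tumours"), 4 are preB-ALL from mice with the transgene alone ("LAP preB-ALL") and 4 are tumours from such mice labelled B-ALL ("LAP B-ALL"). For the last 2 groups the labels name no change at Blnk. The promoter that drives the transgene, the tissue taken, the share of leukaemic cells, and the age, strain and sex of the mice are not stated in the labels. The cells come from a single line, and the labels do not say whether replicates were separate cultures or mice, so p-values measure only the spread between these samples.

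ETS factors share a winged helix-turn-helix domain that binds DNA around the letters GGAA, and differ in partners, in their other domains and in whether they activate or repress. Erg and its nearest relative Fli1 act in blood stem cells, and Erg is needed by early B cell precursors, where it works with Ebf1 and Pax5. Ets1 is the lymphoid ETS factor that restrains plasma cell differentiation. Elf1 and Elf2 belong to the Elf subfamily, with Elf2 made as isoforms of opposite activity. Etv6 is a repressor that is joined to RUNX1 by a translocation in human childhood B-ALL.

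The series changes a C/EBP factor and reads ETS genes, so the stretches before the start sites of Erg, which varied most, and of Elf2, which was called in most comparisons, are shown. They are the 250 bases upstream of each start in RefSeq's GRCm38.p6 annotation, read 5′ to 3′ on the gene's strand. RefSeq windows were matched for 4 of the 6 genes (8 windows), and Ets1 and Fli1 are named only. In the Erg windows capitals mark TTGCNNAA, relaxed letters of a C/EBP site, and in the Elf2 windows CGGAAG, a common ETS core, searched on both strands.
Erg start 1 (minus strand of chr16:95586594-95586843): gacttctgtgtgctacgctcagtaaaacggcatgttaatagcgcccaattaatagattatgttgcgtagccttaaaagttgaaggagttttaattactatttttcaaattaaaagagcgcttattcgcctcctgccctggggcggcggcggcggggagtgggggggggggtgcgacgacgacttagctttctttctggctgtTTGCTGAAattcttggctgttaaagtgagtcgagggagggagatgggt
Erg start 2 (minus strand of chr16:95530366-95530615): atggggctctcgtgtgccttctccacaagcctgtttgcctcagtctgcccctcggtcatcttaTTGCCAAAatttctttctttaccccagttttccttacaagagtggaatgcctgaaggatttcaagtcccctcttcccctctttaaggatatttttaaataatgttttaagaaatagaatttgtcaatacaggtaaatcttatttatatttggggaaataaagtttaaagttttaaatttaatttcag
Erg start 3 (minus strand of chr16:95459349-95459598): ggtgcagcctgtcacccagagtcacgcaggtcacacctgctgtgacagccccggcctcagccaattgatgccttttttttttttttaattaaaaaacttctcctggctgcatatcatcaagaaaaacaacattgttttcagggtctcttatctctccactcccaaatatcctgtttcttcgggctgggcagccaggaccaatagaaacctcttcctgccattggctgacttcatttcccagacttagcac
Elf2 start 1 (minus strand of chr3:51340645-51340894): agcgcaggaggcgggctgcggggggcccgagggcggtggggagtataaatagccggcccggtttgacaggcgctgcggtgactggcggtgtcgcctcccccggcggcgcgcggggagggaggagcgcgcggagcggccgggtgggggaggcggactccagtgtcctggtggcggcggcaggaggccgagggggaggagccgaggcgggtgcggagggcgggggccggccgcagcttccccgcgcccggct
Elf2 start 2 (minus strand of chr3:51277515-51277764): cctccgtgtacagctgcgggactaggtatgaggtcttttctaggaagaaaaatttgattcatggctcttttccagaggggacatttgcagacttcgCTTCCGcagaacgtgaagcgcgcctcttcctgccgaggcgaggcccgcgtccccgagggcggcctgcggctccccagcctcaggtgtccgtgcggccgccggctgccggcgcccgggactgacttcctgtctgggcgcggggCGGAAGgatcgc

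Erg had 1 match in each of 2 windows: TTGCTGAA began 48 bases before start 1 and TTGCCAAA 187 bases before start 2, while start 3 had none. Over all 32851 windows of this length, 9.564% held TTGCNNAA. Elf2 start 2 held CGGAAG 2 times, once on each strand, and start 1 did not hold it, against 13.595% of all windows that did. The shorter GGAA is in 93.446% of windows. No Erg window held CGGAAG, and neither Elf2 window held TTGCNNAA. The 2 Elf1 windows and the 1 Etv6 window held neither TTGCNNAA nor CGGAAG. A match is a run of letters and shows no binding, and the arrays do not show which start was used.

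The deposited values are log ratios, taken here as log2, in which every probe set has a median of 0 over the 8 arrays of the cell line, and again over the 16 tumours by themselves. A value of 0 is therefore the middle of its own set, levels of different genes cannot be compared, cells cannot be set against tumours in level, and whether a gene was detected at all is not kept. Cebpb, the gene behind LAP, checks the labels. Its most variable probe set lay between -4.50 and -1.94 in the 5 Blnk tumours and between -0.03 and 0.51 in the 3 LAP/Blnk tumours. LAP preB-ALL 1, 3 and 4 lay between 0.03 and 0.19, with LAP preB-ALL 2 at -1.41, and LAP B-ALL 1 to 3 between 0.14 and 0.90. The library labelled LAP B-ALL 4 was at -3.11, inside the range of the tumours without a transgene. The other Cebpb probe sets overlapped between Blnk and LAP/Blnk tumours (-1.38 to 1.38 against -1.28 to 0.41, and -0.32 to 0.15 against 0.07 to 0.51). In LAP B-ALL they ran from -0.36 to 1.77 and from -0.37 to 0.05, with the library labelled LAP B-ALL 4 lowest in both. In cells the most variable Cebpb probe set read from -0.14 to 0.01 in control and from -0.01 to 0.24 in LAP cells, and the ranges overlapped. The Blnk probe set did not separate knockout from other tumours (-0.68 to 0.94 in Blnk tumours, -0.53 to 0.93 in LAP B-ALL), and whether it lies in the deleted part is not given. The doubt about the library labelled LAP B-ALL 4 rests on the most variable Cebpb probe set. For this reason the calls and the main differences that use LAP B-ALL are also given without that library. LAP preB-ALL 2, at -1.41, lay below the rest of its group and above the Blnk tumours. Erg differences of LAP preB-ALL against Blnk and LAP/Blnk tumours are also given without it.

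The tumours also differed in markers of other cells. The median of 8 erythroid markers was 5.21, 5.25 and 6.32 in LAP B-ALL 1 to 3, 1.00 in the library labelled LAP B-ALL 4 and 5.83 in LAP preB-ALL 4, and lay between -0.46 and 0.48 in the other 11 tumours. The median of 9 granulocyte markers was 2.15 to 3.02 in LAP B-ALL, and reached 3.44 in Blnk tumours and 3.39 in LAP preB-ALL. The 11 B lineage markers used here had medians from -1.28 to 0.06 in LAP preB-ALL, -0.46 to 0.88 in LAP B-ALL and -0.13 to 0.13 in the tumours of Blnk knockout mice. As detection is not kept, these cannot show that a marker is present or absent in a group. T cell markers (11) reached medians of 2.33 in LAP B-ALL, 1.33 in LAP preB-ALL and 1.29 in Blnk tumours, and NK cell (7), endothelial (10) and platelet (7) markers stayed between -0.65 and 1.52. In bulk RNA fewer cells of a type and less RNA per cell cannot be told apart.

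Ets1 and Etv6 were the members called in the cell line when LAP was added, with the probe sets used here. Ets1 was lower in LAP cells and Etv6 was slightly higher, while Erg, Fli1, Elf1 and Elf2 did not pass the test with the probe set used here. Elf2 was called with the mean of its 3 probe sets (-0.16, limma adjusted p = 0.0429) and with the first by name (-0.20, adjusted p = 0.000698). Thus 2 of 6 members were called at an adjusted p under 0.05 (limma, Benjamini-Hochberg over all genes), where 22.3% of all genes were. This count does not set the 6 genes apart from other genes.

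Ets1 read 0.19, 0.18, 0.22 and 0.14 in the 4 control arrays and -0.21, -0.14, -0.20 and -0.21 in the 4 LAP arrays. Every LAP array lay below every control array, with a narrow spread in each group. The difference was -0.37 ± 0.0295 (SE, 95% interval -0.44 to -0.31), a 1.30-fold lower value (limma adjusted p = 2.35e-05). It stayed called, between -0.39 and -0.36, with any 1 of the 8 arrays left out. Etv6 read -0.11, -0.10, -0.03 and -0.02 in control and 0.02, 0.05, 0.04 and 0.06 in LAP cells, again without overlap. Its rise of 0.11 ± 0.029 (SE), or 1.08-fold, passed with limma at an adjusted p of 0.0238. The call was lost without control array 1 or 2 or without LAP array 2, 3 or 4 (differences of 0.10 to 0.11, limma adjusted p = 0.058 to 0.0633). Groups without overlap were seen for 2 members, against 26.8% of all genes. Of 10 monocyte and macrophage markers 3 were higher in LAP cells, Ccr2 by 2.25, Lyz2 by 1.53 and Fcgr1 by 0.41 (limma adjusted p = 2.58e-05, 2.3e-09 and 0.00144), and of 11 B lineage markers 4 were lower, among them Cd22 (-0.59, limma adjusted p = 6.9e-05), and 1 higher, Cd79b. Of all genes 10.5% were called higher and 11.8% lower. Their part in the Ets1 and Etv6 values was not tested.

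**Figure D1:**
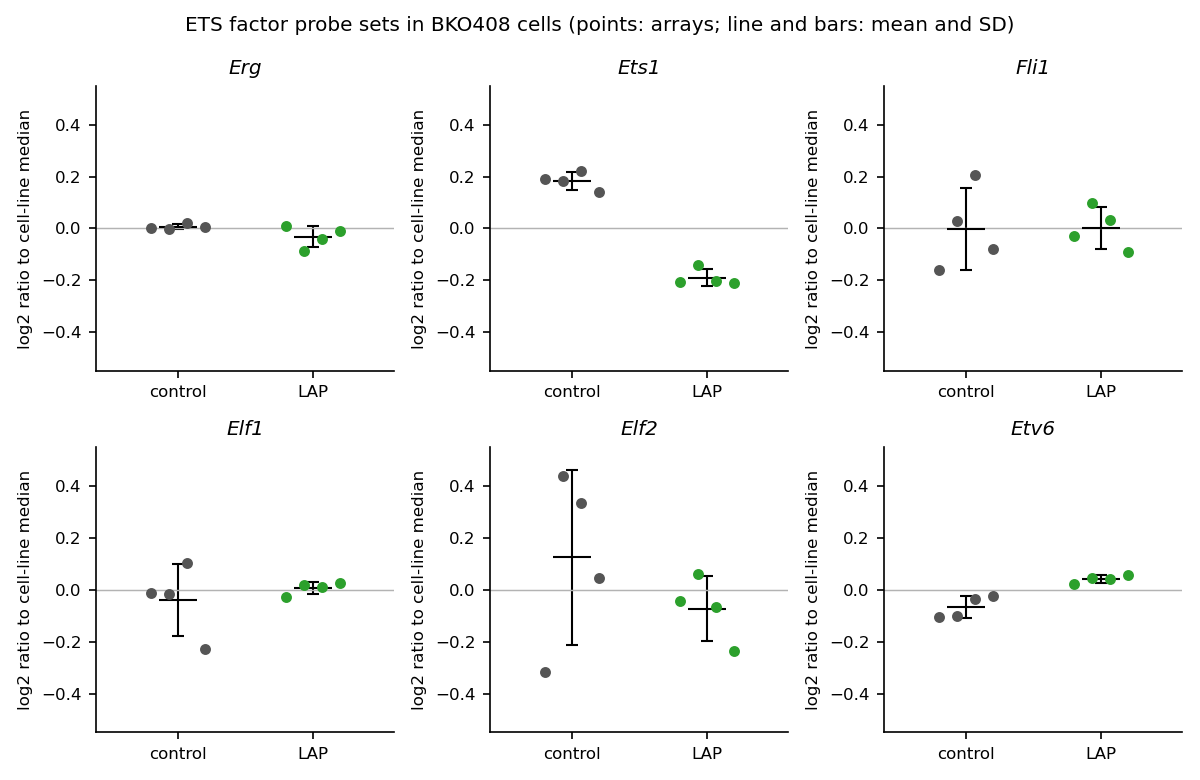
Log2 ratio (vertical axis) of the 6 ETS genes in the 4 control and the 4 LAP BKO408 arrays, each point an array, with the mean ± SD. The LAP points of Ets1 all lie below and those of Etv6 all above the control points, and the other 4 genes overlap.

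Erg varied little between cell arrays with its first probe set. The 4 control arrays read between -0.0016 and 0.02 and the 4 LAP arrays between -0.09 and 0.01, and the groups overlapped (difference -0.04, 95% interval -0.10 to 0.02, limma adjusted p = 0.386). Its SD over the 8 cell arrays was 0.0348, larger than that of 6.88% of genes, while the second probe set had an SD of 0.130 and read from -0.13 to 0.28. Fli1 differed by 0.0048 (interval -0.16 to 0.17) and Elf1 by 0.05 (interval -0.09 to 0.18). Elf2 was the loosest reading, from -0.32 to 0.44 in control and from -0.24 to 0.06 in LAP cells, with a difference of -0.20 (interval -0.53 to 0.13, limma adjusted p = 0.40). Its control arrays alone spanned more than that difference, and without control array 1 Elf2 was called at -0.34 (limma adjusted p = 0.0389).

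Among the tumours Erg was the member that varied most. It was low in 3 of 4 LAP B-ALL and in 2 of 4 LAP preB-ALL, and highest in the LAP/Blnk tumours. The values in the 5 Blnk tumours were 0.65, -0.37, 1.38, 1.16 and 0.42 (mean 0.65 ± 0.69 SD, n = 5), and in the 3 LAP/Blnk tumours 1.61, 1.38 and 1.78 (1.59 ± 0.20 SD, n = 3). LAP preB-ALL 1 to 4 read 0.04, -4.65, -0.18 and -3.52 (-2.08 ± 2.36 SD, n = 4), and LAP B-ALL 1 to 4 read -3.59, -4.30, -3.92 and -0.04 (-2.96 ± 1.97 SD, n = 4). All 3 LAP/Blnk values lie above the highest Blnk value (1.381 against 1.377 at the nearest pair), and the LAP preB-ALL group is split in itself. With the second Erg probe set LAP/Blnk and Blnk tumours overlapped (1.36 in LAP/Blnk tumour 2 against 1.56 in Blnk tumour 3). With the first probe set the range over the 16 tumours was 6.43, or 86.3-fold, and the SD of 2.35 was larger than that of 99.6% of genes. The second probe set had a smaller range, from -2.53 to 1.87, and an SD of 1.64.

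Erg values left a gap of 3.15 between 5 tumours, at -4.65 to -3.52, and the other 11, at -0.37 to 1.78. The next largest gap was 0.511. The 5 low tumours were LAP B-ALL 1 to 3 and LAP preB-ALL 2 and 4, so all had the transgene and no Blnk change in the labels. The library labelled LAP B-ALL 4, whose value for the most variable Cebpb probe set goes against its label, was not among them. Of the 5, 4 had erythroid marker medians above 5, and LAP preB-ALL 2 had a median of -0.30. That tumour was the lowest in Erg with the first probe set only. With the second it read -2.28, above LAP B-ALL 2 (-2.45) and LAP B-ALL 3 (-2.53). T cell marker medians were 0.74, 0.64 and 2.33 in LAP B-ALL 1 to 3 and 1.33 and 0.81 in LAP preB-ALL 2 and 4. In the other tumours they lay between -0.51 and 0.47, except for 1.29 in Blnk tumour 5. The part of the cells behind these markers in the Erg values was not tested.

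**Figure D2:**
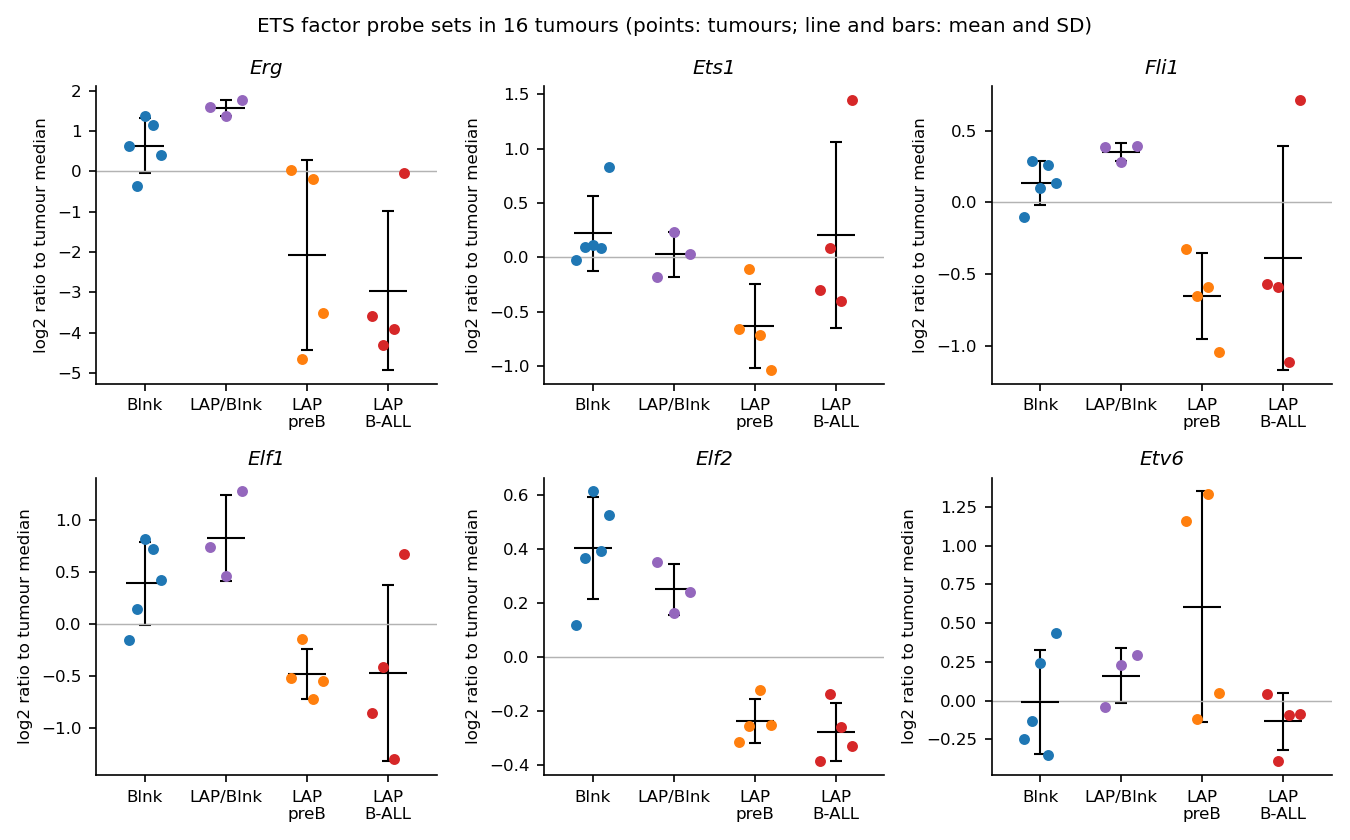
Log2 ratio (vertical axis, scaled per gene) of the 6 ETS genes in the 16 tumours by group, each point a tumour, with the mean ± SD. Erg spans from -4.65 to 1.78 and splits LAP preB-ALL and LAP B-ALL in themselves. The Elf2 probe set shown separates both of these groups from both groups of Blnk knockout tumours.

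Erg was called in 1 of the 6 tumour comparisons, which share groups of arrays and so are not independent of each other. LAP B-ALL were lower than LAP/Blnk tumours by 4.55 on the log2 scale (SE 1.14, 95% interval -7.0 to -2.10), or 23.4-fold, with a limma adjusted p of 0.0442. The groups did not overlap. Without the library labelled LAP B-ALL 4 the difference was -5.52 (limma adjusted p = 0.00668), but leaving out any other 1 of the 7 tumours (LAP B-ALL 1, 2 or 3, or LAP/Blnk 1, 2 or 3) ended the call, with a difference of -4.10 at the least and limma adjusted p-values of up to 0.134. An exact permutation test of these 7 tumours gave p = 0.0571 (two-sided), where 0.0286 is the smallest they allow.

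The other Erg differences did not pass with this probe set and all samples. LAP B-ALL minus Blnk tumours was -3.61 (SE 1.00, 12.2-fold, limma adjusted p = 0.0788), and became -4.58 with an adjusted p of 0.0102 without the library labelled LAP B-ALL 4. The second Erg probe set was called here (-2.64, limma adjusted p = 0.0442). LAP/Blnk tumours minus LAP preB-ALL was 3.67 (SE 1.14, 12.7-fold, limma adjusted p = 0.114), but was called with the second probe set (2.79, adjusted p = 0.0468) and after quantile normalisation (3.53, adjusted p = 0.0475). LAP preB-ALL minus Blnk tumours was -2.73 (SE 1.00, 95% interval -4.87 to -0.58, limma adjusted p = 0.273). With 1 tumour left out it ran from -3.43 (without LAP preB-ALL 1) to -1.87 (without LAP preB-ALL 2). LAP/Blnk tumours minus LAP preB-ALL was 4.37 without LAP preB-ALL 1 and 2.81 without LAP preB-ALL 2. Adding the transgene on the Blnk knockout background went with an Erg difference of 0.94 (SE 1.09, 95% interval -1.40 to 3.28, limma adjusted p = 1.00). That interval holds a change of either sign. LAP B-ALL minus LAP preB-ALL was -0.88 (interval -3.15 to 1.38, limma adjusted p = 0.781). This Erg value was -1.86 without the library labelled LAP B-ALL 4 (limma adjusted p = 0.415) and -0.17 without LAP preB-ALL 1.

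Elf2 was the member called most often in tumours, with small differences. It read 0.12, 0.37, 0.62, 0.39 and 0.53 in Blnk tumours, 0.35, 0.16 and 0.24 in LAP/Blnk tumours, -0.31, -0.25, -0.12 and -0.25 in LAP preB-ALL and -0.39, -0.14, -0.26 and -0.33 in LAP B-ALL. With this probe set all 8 tumours of Blnk knockout mice were above all 8 tumours labelled as LAP transgenic alone. The share of all genes with such a split was not counted. The centring to a median of 0 over the tumours puts such a split at 0. With the second Elf2 probe set the 2 sets overlapped (-0.24 in Blnk tumour 5 and 0.20 in the library labelled LAP B-ALL 4). Elf2 fell by 0.64 (SE 0.0954, limma adjusted p = 0.0398) in LAP preB-ALL and by 0.68 (SE 0.0954, limma adjusted p = 0.00538) in LAP B-ALL against Blnk tumours. Against LAP/Blnk tumours, LAP B-ALL differed by -0.53 (SE 0.109, limma adjusted p = 0.0188), and LAP/Blnk tumours were higher than LAP preB-ALL by 0.49 (SE 0.109, limma adjusted p = 0.0365).

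These calls rest on 1 of 3 Elf2 probe sets and mostly on every tumour being present. The second probe set gave -0.23 and the third 0.19 for LAP B-ALL minus Blnk tumours, and the third correlated with the first at r = -0.32 over the 16 tumours. With the mean of the 3 probe sets Elf2 was not called in LAP B-ALL minus Blnk (-0.24), LAP B-ALL minus LAP/Blnk (-0.22) or LAP preB-ALL minus Blnk (-0.34), with limma adjusted p-values of 0.0659, 0.0884 and 0.0854, and stayed called in LAP/Blnk minus LAP preB-ALL. LAP B-ALL minus Blnk stayed called with each of 9 tumours left out (-0.75 to -0.63). LAP preB-ALL minus Blnk stayed called only without Blnk tumour 1 and was lost without any other of its 9 tumours (-0.71 to -0.59, limma adjusted p up to 0.0932), and LAP/Blnk minus LAP preB-ALL was lost without any of its 7 tumours (0.44 to 0.53, limma adjusted p = 0.0501 to 0.122). LAP B-ALL minus LAP/Blnk was lost without LAP B-ALL 1 (-0.49), LAP/Blnk 1 (-0.48) or LAP/Blnk 3 (-0.53), with limma adjusted p-values of 0.0609, 0.0834 and 0.0613. In the cells the second probe set lay lower in all 4 LAP arrays (-0.10 to -0.06) than in the 4 control arrays (0.06 to 0.15), which the first did not.

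Fli1, the relative of Erg that neighbours Ets1 on chromosome 9, and Elf1 had the same order of group means, highest in LAP/Blnk tumours. Fli1 read -0.10, 0.29, 0.10, 0.26 and 0.14 in Blnk tumours, 0.38, 0.28 and 0.39 in LAP/Blnk tumours, -0.32, -0.65, -0.59 and -1.05 in LAP preB-ALL and -0.57, -0.59, -1.12 and 0.72 in LAP B-ALL. LAP preB-ALL lay below all Blnk and LAP/Blnk tumours, and the library labelled LAP B-ALL 4 was the highest of the 16. Fli1 means ran from LAP/Blnk (0.35) to Blnk (0.14), LAP B-ALL (-0.39) and LAP preB-ALL (-0.65), and no neighbours in this order differed by more than limma's threshold. No Fli1 difference passed: LAP/Blnk minus LAP preB-ALL was 1.00 (95% interval 0.34 to 1.67, limma adjusted p = 0.112) and LAP preB-ALL minus Blnk -0.79 (interval -1.37 to -0.20, limma adjusted p = 0.249). LAP B-ALL minus LAP/Blnk was -0.74 (limma adjusted p = 0.178), and -1.11 (adjusted p = 0.00438) without the library labelled LAP B-ALL 4. LAP B-ALL minus Blnk, -0.53 (limma adjusted p = 0.285), became -0.89 (adjusted p = 0.00759) without it.

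Elf1 read -0.15, 0.15, 0.81, 0.72 and 0.43 in Blnk tumours, 0.74, 0.46 and 1.28 in LAP/Blnk tumours, -0.51, -0.15, -0.72 and -0.55 in LAP preB-ALL and -0.85, -0.41, -1.30 and 0.68 in LAP B-ALL. Every LAP/Blnk tumour was above every LAP preB-ALL, and the library labelled LAP B-ALL 4 again stood with the high tumours. LAP/Blnk minus LAP preB-ALL was 1.31, or 2.47-fold (limma adjusted p = 0.0934), and LAP B-ALL minus LAP/Blnk was -1.30 (limma adjusted p = 0.0731). Without the library labelled LAP B-ALL 4 the latter was -1.68 (limma adjusted p = 0.0059), and LAP B-ALL minus Blnk went from -0.86 (adjusted p = 0.156) to -1.25 (adjusted p = 0.0122). Thus LAP B-ALL against Blnk and against LAP/Blnk each had 4 called members, Erg, Fli1, Elf1 and Elf2, once that library was left out, where 10.7% and 11.6% of all genes were called.

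Ets1 had its lowest values in LAP preB-ALL. It read -0.03, 0.09, 0.12, 0.09 and 0.83 in Blnk tumours, -0.18, 0.24 and 0.03 in LAP/Blnk tumours, -0.66, -0.11, -0.71 and -1.04 in LAP preB-ALL and -0.30, 0.09, -0.40 and 1.45 in LAP B-ALL. All 4 LAP preB-ALL were below the 5 Blnk tumours, and the highest value was again that of the library labelled LAP B-ALL 4. LAP preB-ALL minus Blnk was -0.85 (SE 0.328, limma adjusted p = 0.298), and the exact permutation test of these 9 tumours gave its smallest possible p, 0.00794, with an adjusted exact p of 0.0972 over 98 tests. Another Ets1 probe set, annotated to the same source sequence as the first, separated these groups too (-0.78, exact permutation p = 0.00794). The remaining Ets1 probe sets overlapped, with LAP preB-ALL 2 at 0.15 and 0.34 (exact permutation p = 0.0476 for each). LAP B-ALL minus LAP preB-ALL was 0.84 (limma adjusted p = 0.418), and 0.42 (adjusted p = 0.460) without the library labelled LAP B-ALL 4.

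Etv6 was highest in LAP preB-ALL 1 and 3 and between -0.39 and 0.44 elsewhere. It read -0.25, -0.13, 0.24, -0.35 and 0.44 in Blnk tumours, -0.04, 0.23 and 0.30 in LAP/Blnk tumours, 1.16, -0.12, 1.34 and 0.05 in LAP preB-ALL and 0.04, -0.39, -0.10 and -0.09 in LAP B-ALL. LAP preB-ALL 1 and 3 are the LAP preB-ALL outside the low Erg values. No Etv6 difference between tumour groups passed: LAP preB-ALL minus Blnk was 0.62 (limma adjusted p = 0.365) and LAP B-ALL minus LAP preB-ALL -0.74 (limma adjusted p = 0.406), or -0.76 (adjusted p = 0.346) without the library labelled LAP B-ALL 4.

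Counted by comparison, no member was called between LAP/Blnk and Blnk tumours (limma, 0.0175% of all genes called) or between LAP B-ALL and LAP preB-ALL (limma, 0% of genes called). At an unadjusted limma p under 0.05 these had 0 and 2 members, against 5.78% and 11.0% of genes. One member, Elf2, was called in LAP/Blnk minus LAP preB-ALL (2.37% of genes called), in LAP preB-ALL minus Blnk (0.0819%) and in LAP B-ALL minus Blnk (1.45%). In LAP B-ALL minus LAP/Blnk 2 were called, Erg and Elf2 (3.52%). The median member difference was 0.83 in LAP/Blnk minus LAP preB-ALL, -0.82 in LAP preB-ALL minus Blnk, -0.60 in LAP B-ALL minus Blnk and -0.64 in LAP B-ALL minus LAP/Blnk, where the medians of all genes were between -0.03 and 0.0042. Without the library labelled LAP B-ALL 4 the last pair of member medians was -0.78 and -0.81, beside -0.03 and -0.01 for all genes. Groups did not overlap for 4 members in LAP/Blnk minus LAP preB-ALL (17.3% of genes), 3 in LAP preB-ALL minus Blnk (4.59%), 1 in LAP B-ALL minus Blnk (8.52%), 2 in LAP B-ALL minus LAP/Blnk (22.2%), 1 in LAP/Blnk minus Blnk (5.36%) and 0 in LAP B-ALL minus LAP preB-ALL (5.21%).

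**Figure D3:**
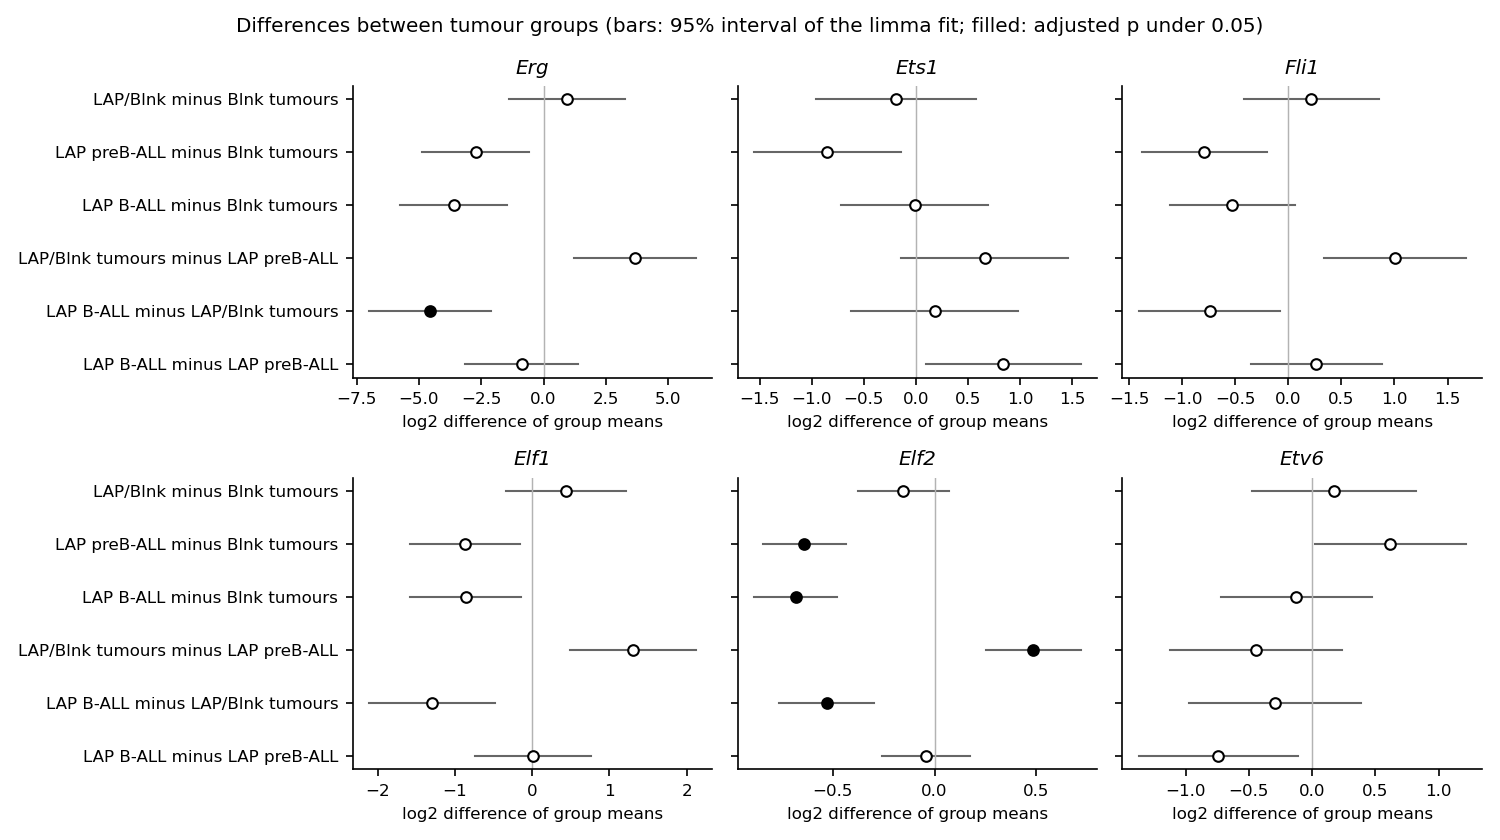
Differences between tumour group means on the log2 scale (horizontal axis) for the 6 ETS genes in the 6 comparisons, with 95% intervals, where filled points have a limma adjusted p under 0.05. Erg has the widest intervals and 1 filled point at -4.55, and Elf2 has 4 filled points with narrow intervals.

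Whether LAP acted differently on the ETS genes in cells and in Blnk knockout tumours was tested as a difference of differences, in which the separate centring of both sets cancels. No member passed (limma, 1.05% of all genes called), and 1 member, Erg, had an unadjusted p under 0.05 (0.0225, against 13.0% of genes). Its LAP difference was larger in tumours by 0.98 (SE 0.383, 95% interval 0.16 to 1.80, limma adjusted p = 0.275). This fit shares 1 estimate of spread between cells (Erg SD 0.01 in control, 0.04 in LAP) and tumours (0.69 in Blnk, 0.20 in LAP/Blnk). The Erg difference of 0.94 between these tumours (SE 1.09, interval -1.40 to 3.28) used the spread of all tumour groups, so both intervals rest on different spreads. Ets1, which fell in cells, differed between tumours by -0.19 (interval -0.96 to 0.57), and the difference of differences was 0.18 (interval -0.27 to 0.64, limma adjusted p = 0.793).

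The members varied together to different degrees over the 16 tumours. Pearson's r was 0.88 for Fli1 and Elf1, 0.81 for Erg and Fli1, 0.75 for Erg and Elf1, 0.72 for Ets1 and Fli1, 0.70 for Elf1 and Elf2 and 0.69 for Erg and Elf2. Erg and Ets1 gave 0.33, and Etv6 gave between -0.32 and 0.27 with the others. The points share groups, array scaling and cell makeup, and Erg falls into 2 clusters, so within the 11 tumours of higher Erg its r was 0.72 with Elf1, 0.51 with Elf2, 0.35 with Fli1, -0.04 with Ets1 and -0.34 with Etv6. All 6 members were above 0 in Blnk tumours 3 and 5 and LAP/Blnk tumours 2 and 3, and all 6 were below 0 in LAP preB-ALL 2 and LAP B-ALL 3.

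The probe sets of a gene gave like tumour values for Erg, Ets1, Fli1 and Elf1 and unlike ones for Elf2. The second Erg probe set correlated with the first at r = 0.98 over 16 tumours, with smaller differences: -2.64 for LAP B-ALL minus Blnk, which limma called (adjusted p = 0.0442), and 2.79 for LAP/Blnk minus LAP preB-ALL, also called (adjusted p = 0.0468). In the cells its r with the first was 0.11. The 4 Ets1 probe sets correlated at 0.90 to 1.00 in tumours. In cells only 1 other matched the LAP difference of the first (-0.36 against -0.37), and it is annotated to the same source sequence. The remaining 2, annotated to another sequence, gave -0.12 and -0.03. The call for Ets1 in cells was lost when the probe set of -0.12 stood for the gene (limma adjusted p = 0.0502). The second Fli1 probe set put LAP cells below control cells by 0.10 without overlap, while the first gave 0.0048. Etv6 has 1 probe set.

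**Figure D4:**
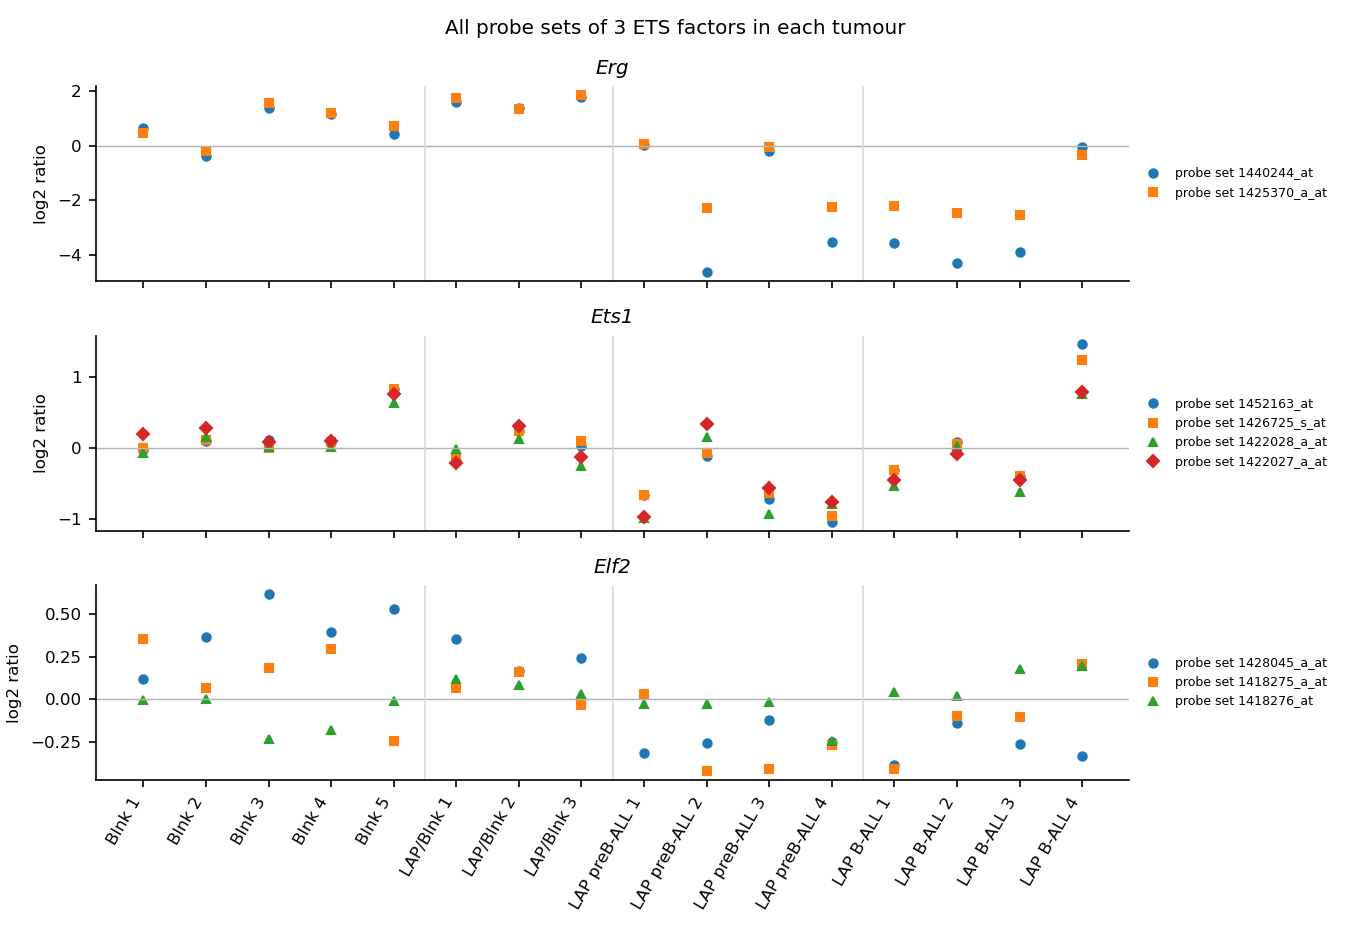
Log2 ratio (vertical axis) of every probe set of Erg (2), Ets1 (4) and Elf2 (3) in the 16 tumours (horizontal axis), 1 marker shape a probe set. The points of the Erg and of the Ets1 probe sets rise and fall together, and those of the 3 Elf2 probe sets do not.

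Other ETS genes moved in the cells too. Of 20 further ETS factors 18 were measured (Elk1 and Fev were not). In LAP cells 1 was called higher, where 10.5% of all genes were, and 4 lower, where 11.8% were, with a list median of 0.0061 against -0.01 for all genes. Gabpa, which forms the GA-binding protein with Gabpb1, rose by 0.13 (limma adjusted p = 0.0174). Etv5, of the Pea3 group, fell by 0.59 (limma adjusted p = 2.47e-06) and the ternary complex factor Elk3 fell by 0.35 (adjusted p = 0.00039). Spdef (-0.15) and the ternary complex factor Elk4 (-0.12) were also lower (limma adjusted p = 0.0135 and 0.00669).

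**Figure D5:**
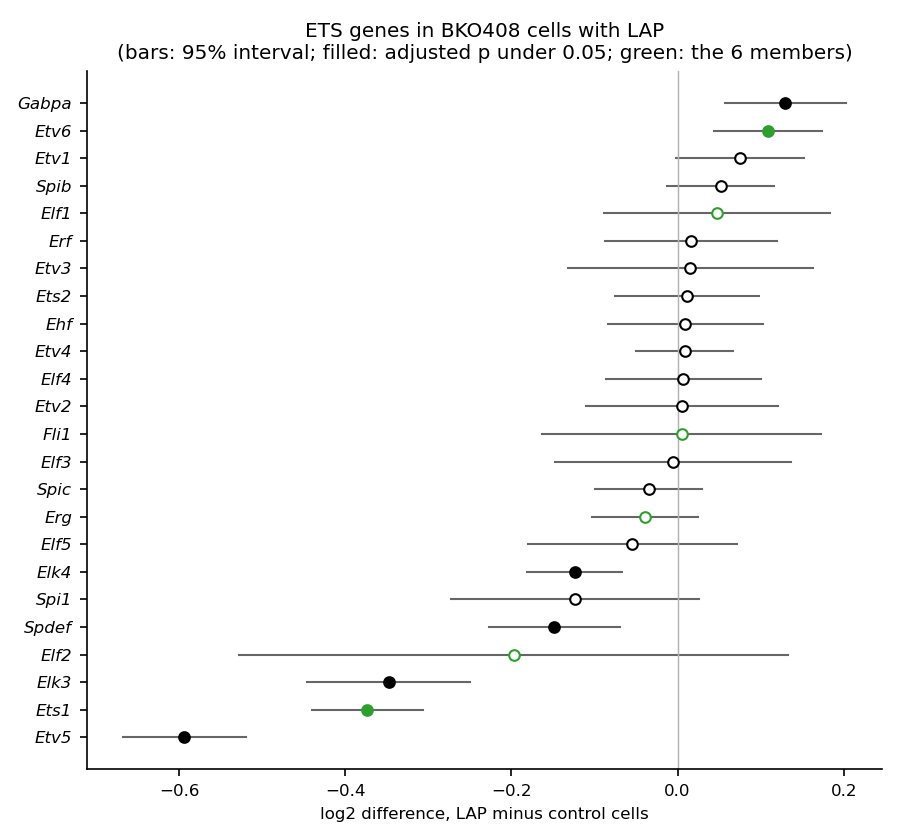
LAP minus control difference on the log2 scale (horizontal axis, 95% interval) of the 24 measured ETS genes in BKO408 cells, where filled points have a limma adjusted p under 0.05. There are 7 filled points: Gabpa and Etv6 to the right of 0, and Etv5, Ets1, Elk3, Spdef and Elk4 to the left.

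In tumours 3 of these ETS genes were called. Spi1, or PU.1, which directs myeloid and B cell fate, read -0.42, -0.09, -0.59, -0.51 and -0.20 in Blnk tumours and 0.74, 0.16, 0.32 and 0.36 in LAP B-ALL, without overlap. It was higher by 0.76 in LAP B-ALL (limma adjusted p = 0.0488), where 1 of 18 was called higher and 0 lower (0.480% and 0.971% of all genes). Spic, the PU.1 relative of red pulp macrophages, read 2.21, 1.40, 3.21 and 0.44 in LAP B-ALL against -1.71, -1.22 and -2.53 in LAP/Blnk tumours, also without overlap. It was 12.4-fold higher in LAP B-ALL (3.63, limma adjusted p = 0.0477). The median of 10 monocyte and macrophage markers was 0.07 to 1.61 in LAP B-ALL and -0.56 to -0.32 in LAP/Blnk tumours, with Marco, a macrophage receptor, higher by 5.58, and the part of such cells in the Spic and Spi1 values was not tested. Etv5 read -1.38, -1.73, -1.46 and -1.25 in LAP B-ALL against 0.93, 0.14 and 0.60 in LAP/Blnk tumours, so that here the library labelled LAP B-ALL 4 stood with its group. Etv5 was 4.02-fold lower in LAP B-ALL (-2.01, limma adjusted p = 0.0318). In this comparison 1.32% of all genes were called higher and 2.21% lower. Without the library labelled LAP B-ALL 4 these calls held, at 0.77 for Spi1, 4.09 for Spic and -2.08 for Etv5 (limma adjusted p = 0.0269, 0.0182 and 0.021), and Marco was higher by 6.05. Leaving out any other 1 tumour of the comparison ended the Spic and Etv5 calls, with limma adjusted p-values of up to 0.165 and 0.118. The Spi1 call also held without Blnk tumour 5. It ended without Blnk tumour 1, 2, 3 or 4 or LAP B-ALL 1, 2 or 3 (limma adjusted p up to 0.143).

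Among 13 partners of ETS factors, Lyl1 rose (0.14) and Myb (-0.29), Tcf3 (-0.26) and Lmo2 (-0.11) fell in LAP cells, with limma adjusted p-values of 0.00702, 0.000335, 0.00356 and 0.0065, beside 10.5% of all genes higher and 11.8% lower. Myb drives the growth of blood progenitors, Tcf3 makes the E proteins of B cell fate, and Lyl1 and Lmo2 act in stem cell complexes with Erg and Fli1. In tumours 1 partner was called, Gabpb1, the partner of Gabpa, which fell by 0.88 in LAP B-ALL against LAP/Blnk tumours (limma adjusted p = 0.0358). Runx1 and Tal1 gave -2.42 and 3.02 there without passing (limma adjusted p = 0.076 and 0.108). Without the library labelled LAP B-ALL 4, where 11.6% of all genes were called, the differences were -1.03 for Gabpb1, -2.83 for Runx1 and 3.99 for Tal1, and all 3 were called (limma adjusted p = 0.00747, 0.0261 and 0.0117). The Gabpb1 call was lost without any other 1 of the 7 tumours (limma adjusted p up to 0.123).

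The Erg, Ebf1 and Pax5 network of pro-B cells is described by 17 genes. In LAP cells 9 were called lower and 1 higher, beside 11.8% and 10.5% of all genes, with a list median of -0.16. The largest falls were in Dntt, which adds bases at V(D)J joints (-1.91, limma adjusted p = 1.29e-09), the recombinase genes Rag1 (-1.32, adjusted p = 3.58e-09) and Rag2 (-1.19, adjusted p = 7.98e-08), and Bach2 (-0.51, adjusted p = 1.17e-06). Erg itself did not pass in those cells. Of the network's genes 7 are also B lineage markers and 2 are in the list of partners.

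In the tumours no network gene passed with limma in any of the 6 comparisons when all samples were used. Without the library labelled LAP B-ALL 4, 8 of the 17 were called lower and 0 higher in LAP B-ALL minus Blnk, and 8 lower and 0 higher in LAP B-ALL minus LAP/Blnk, where 10.7% and 11.6% of all genes were called. The median of the 17 genes was -0.67, -0.60 and -0.67 in LAP B-ALL 1 to 3, 0.54 in the library labelled LAP B-ALL 4, -0.18, -0.30, -0.29 and -0.89 in LAP preB-ALL 1 to 4, and between -0.13 and 0.55 in the 8 tumours of Blnk knockout mice. Between groups the median difference of the network genes was -2.01 in LAP B-ALL minus LAP/Blnk, -1.79 in LAP B-ALL minus Blnk, 1.46 in LAP/Blnk minus LAP preB-ALL and -1.32 in LAP preB-ALL minus Blnk. Without that library the first pair of medians was -2.01 and -1.87. The extremes were Vpreb1, a surrogate light chain gene (-6.90 in LAP B-ALL minus LAP/Blnk, limma adjusted p = 0.115, and -9.15 with an adjusted p of 0.0132 without the library labelled LAP B-ALL 4), and Rag1 (5.15 in LAP/Blnk minus LAP preB-ALL, limma adjusted p = 0.157).

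Of 13 genes of Mapk feedback and ETS response, 12 were measured (Dusp5 was not). In LAP cells 3 were called higher (10.5% of genes) and 2 lower (11.8%). The immediate early genes Fos (1.56, limma adjusted p = 1.33e-08) and Egr1 (0.84, adjusted p = 1.41e-07) rose most, and the Mapk phosphatase Dusp4 (-0.60, adjusted p = 4.36e-06) fell with Etv5. The list thus split in both directions, with a median of 0.0017. Of the lists of other ETS factors, partners, network and Mapk genes, Fos was the 1 gene called in the difference of differences, where its LAP difference was lower in tumours by 1.74, or -1.74 (limma adjusted p = 0.0136).

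Genes whose tumour pattern was most like that of Erg were ranked by Pearson's r over the 16 tumours among 15416 named genes. The highest were Fgf13 (0.98), Plscr3, Wwc2, Pde2a and Vpreb2 (0.97 each), and the lowest Swap70 and Dnajb13 (-0.98 each) and Slc48a1 (-0.96). Fgf13 is a member of the fibroblast growth factor family, Pde2a a cyclic nucleotide phosphodiesterase, Vpreb2 a surrogate light chain gene of pre-B cells and Swap70 a B cell switch-associated protein. Vpreb2 lay between -8.40 and -7.94 in the 5 tumours of low Erg and between -0.98 and 0.66 in the other 11, and Swap70 between 1.97 and 3.09 against -1.18 to 0.60. The 2 Erg clusters enter these r values, and within the 11 tumours they were 0.68 for Fgf13, 0.58 for Plscr3, 0.82 for Wwc2, 0.52 for Pde2a, 0.67 for Vpreb2, -0.83 for Swap70, -0.71 for Dnajb13 and -0.88 for Slc48a1. Fli1 ranked 411 and Ets1 4214 on this scale.

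For Ets1 the likest genes were Pdcd6ip and Fbxw11 (0.90 each), Gosr1, Ythdf3 and Sesn3 (0.87 each), with Rfc5 (-0.83), Cngb1 and Blm (-0.82 each) lowest. Rfc5, a clamp loader subunit, and Blm, a helicase, act in DNA replication and repair. Without the 2 tumours farthest from the median of Ets1, the library labelled LAP B-ALL 4 and LAP preB-ALL 4, the values were 0.73 to 0.82 for the highest and -0.72 to -0.69 for the lowest. Fli1 ranked 207 on this scale, and Erg 2912.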

How the data were processed

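The authors deposited 1 table of log ratios, taken here as log2, for 45141 probe sets on 24 arrays. The submitters' processing notes name MAS5, with no version and no other tool, and how the deposited log2 ratios were centred was read from the values: the median of each probe set was 0 over the 8 cell-line arrays and over the 16 tumours. The base of the log is not stated, so folds hold only if it is 2. Arrays carry no read depth, and their number limits the precision. No scan date or batch is given.

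Probe sets were named from the platform's annotation of 2016: 28898 have 1 gene symbol, 551 several and 15692 none, and those with 1 symbol gave 17097 genes. For the 7180 genes with more than 1, the most variable was taken (deviations from the cell mean and the tumour mean, pooled). Cells (8 arrays) and tumours (16 arrays, 4 groups sharing 1 estimate of spread) were fitted apart with limma 3.58.1 in R 4.3.3 (lmFit, eBayes, no trend), and the difference of both LAP effects on the Blnk knockout background was fitted over the 4 groups involved. Calls are two-sided, at a Benjamini-Hochberg adjusted p under 0.05 over all 17097 genes. Each of the 14 member probe sets was also given an exact permutation test in 7 comparisons (98 tests). The limma script was tested on simulated data.

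The 6 genes, the lists of ETS factors, partners, network and Mapk genes and the marker lists were chosen with earlier results of these data known. Named genes are the members, in each list those called (the 4 largest where more were, otherwise the extremes), and for Erg and Ets1 the 5 highest and 3 lowest by Pearson's r. Other named genes were chosen after their values were seen. Alternatives were other rules for probe sets, the groups compared alone, all 24 arrays in 1 fit, a trend of the variance, array weights, quantile normalisation, the 50% more variable genes, a replicate block, and each sample left out. For genes of the lists, samples were left out by a choice made after seeing the data. Same-numbered samples did not meet the rule for pairing: in no comparison were all correlations of deviations over 0.1 (-0.64 to 0.38, and -0.03 to 0.26 in cells). Differently numbered samples were not set beside them, so pairing is not settled. No 2 arrays of a group held identical values.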

Additional observations from a re-analysis of the deposited data

Results flagged for a closer look

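Over the 6 genes and the groups of 4 or more, 30 sets of values were looked at for a sample far from the others, and 3 had one, where chance gives about 1 in 20. Erg was at -0.038 in the library labelled LAP B-ALL 4, while the other LAP B-ALL lay between -4.30 and -3.59. In the same library the most variable Cebpb probe set was at -3.11, against 0.14 to 0.90 in the other 3. Ets1 was at -0.14 in LAP BKO408 array 2, with the other 3 between -0.21 and -0.20. Ets1 was at 0.83 in Blnk tumour 5, with the other 4 between -0.03 and 0.12.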

How the results depend on the processing

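Over the 6 genes, 793 alternative values were computed: 724 kept the direction and side of the threshold, 50 lost a call, 19 gained one, and no called value turned its sign, although 37 uncalled values did. Erg in LAP B-ALL minus Blnk tumours was called with its other probe set (-2.64) and with array weights (-4.31), and ran from -4.58 to -3.16 with 1 tumour left out. Erg in LAP B-ALL minus LAP/Blnk tumours lost its call when only these groups were fitted (-4.55, limma adjusted p = 0.0556) and ran from -5.52 to -4.10 with 1 tumour left out. Erg in LAP/Blnk minus LAP preB-ALL was called with the other probe set (2.79) and after quantile normalisation (3.53).

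Members called in LAP B-ALL minus Blnk tumours (1) came to 0 with the mean or the first of the probe sets, 4 with array weights and 1 to 4 with a tumour left out. In LAP B-ALL minus LAP/Blnk (2) they came to 1 with the mean or first probe set or only these groups, 3 after quantile normalisation (Elf1 gained), 2 with the more variable genes (Elf1 gained, Elf2 lost), 4 with array weights and 0 to 4 with a tumour left out. In LAP preB-ALL minus Blnk (1) they came to 0 with the mean or first probe set, only these groups, quantile normalisation or the more variable genes, and 0 to 1 with a tumour left out. In LAP/Blnk minus LAP preB-ALL (1) they came to 0 with the first probe set, only these groups, the more variable genes or any tumour left out, and 2 after quantile normalisation. In cells (2) they came to 0 in 1 fit of all 24 arrays, where the tumours' larger spread enters, 3 with the mean of the probe sets (Elf2 gained), 2 with the first (Elf2 gained, Ets1 lost) and 1 to 2 with an array left out. Except where stated, the cause was not tested.

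The labels do not say whether replicate numbers pair the samples, and same-numbered samples did not meet the rule for pairing. With the replicate block, members called came to 0 in LAP B-ALL minus Blnk, LAP preB-ALL minus Blnk and LAP/Blnk minus LAP preB-ALL, and to 2 in cells. They came to 2 in LAP B-ALL minus LAP/Blnk, where the 3 pairs leave out the library labelled LAP B-ALL 4: Erg (-5.52, limma adjusted p = 0.00282) and Fli1 (-1.11, adjusted p = 0.026) were called and Elf2 was not (-0.51, adjusted p = 0.0706).

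Counts over all genes moved more. Leaving out 1 sample gave 47 to 1835 in LAP B-ALL minus Blnk (248), 246 to 1980 in LAP B-ALL minus LAP/Blnk (602), 85 to 304 in LAP/Blnk minus LAP preB-ALL (406), 0 to 17 in LAP preB-ALL minus Blnk (14), 2 to 13 in LAP/Blnk minus Blnk (3), 0 to 291 in LAP B-ALL minus LAP preB-ALL (0) and 75 to 691 in the difference of differences (180). The highest of the first 2 came without the library labelled LAP B-ALL 4. Array weights gave 3619, 4063, 24 and 33 for LAP B-ALL minus Blnk, LAP B-ALL minus LAP/Blnk, LAP preB-ALL minus Blnk and LAP/Blnk minus Blnk, 4 for LAP B-ALL minus LAP preB-ALL and 820 for the difference of differences. The replicate block gave 0, 2680, 0 and 0 for the first 4 of these and 0 for LAP/Blnk minus LAP preB-ALL, and its 2680 also lack the library labelled LAP B-ALL 4, without which alone 1980 were called. In cells (3820), 1 fit of all 24 arrays gave 21. LAP B-ALL minus Blnk gave 107, 91 and 411 with the mean probe set, the first probe set and only these groups, LAP preB-ALL minus Blnk 0, 2 and 5, and LAP/Blnk minus LAP preB-ALL 50 with only these groups. The more variable genes gave 262 for the last and 3 for LAP preB-ALL minus Blnk, and quantile normalisation gave 2 for that and 21 for LAP/Blnk minus Blnk.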
